A study of Mus musculus with 51 samples.

Results

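H3K27me3 was compared between the C57BL6/Babr (B6) and the CAST/Ei (CAST) allele of E6.5 mouse epiblast at autosomal peaks, and the members are the peaks where the strain, not the parent, set the higher allele in both reciprocal crosses. Of 11810 autosomal peaks, 8924 were informative, meaning that 20 reads or more came from 1 of the alleles in some wild-type library. Strain-specific peaks, with the same strain higher at an adjusted p below 0.05 in each cross on its own, numbered 90, or 1.01% of informative peaks. The B6 allele was higher at 41 of them (0.459%) and the CAST allele at 49 (0.549%). Which direction had more peaks depended on the settings, since it was 42 B6-high to 35 CAST-high with 1 size per library for both alleles and 161 to 144 with the library as a block.

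The embryos were F1 hybrids, with the mother written first. B6/CAST embryos had a B6 mother and a CAST father, CAST/B6 embryos the reverse, and both were wild type. Each of the 2 libraries per cross was made from 4 pooled epiblasts, by micrococcal nuclease digestion and immunoprecipitation of low-input native chromatin. In matDKO/CAST, whose 2 libraries are used below as samples that played no part in the choice of the peaks, floxed Dnmt3a and Dnmt3b had been deleted in the oocytes of B6/129 mothers through Zp3-cre, which is active in growing oocytes, and the fathers were CAST. The extra-embryonic ectoderm (ExE) libraries came from pools of 8 of the same kind of wild-type embryos. The labels do not give the sex of the embryos in a pool.

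H3K27me3 is laid down by Polycomb repressive complex 2 (PRC2), whose catalytic subunits are EZH2 and EZH1, and is found in broad domains over silent genes, most densely over CpG-rich promoters of developmental regulators. PRC2 has little sequence preference of its own beyond unmethylated CpG-rich DNA, and the mark is depleted where DNA is methylated or transcribed. In an F1 hybrid both alleles lie in the same nucleus and meet the same factors. A difference that follows the strain in both crosses goes with the strain of the allele, while an imprinted difference follows the parent. Allele-resolved input, from chromatin before immunoprecipitation, was not used here. What part input or the assignment of reads to alleles has in strain-following differences was not tested.

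The promoters of 4 members at annotated start sites are printed first. Uggt2, Grm6 and Sv2c were taken because the H3K27me3 difference could be set beside an overlapping H3K4me3 peak. Tet2 was taken because its peak had the most allelic reads of the B6-high members. The sequences run 5′ to 3′ on the strand of the gene, from 250 bases before to 30 bases after the start. They are from the RefSeq reference (GRCm38.p6, a B6 sequence), with each CpG in capitals. Uggt2 lies at chr14:119099405-119099684 on the minus strand, Grm6 at chr11:50850435-50850714 on the plus strand, Sv2c at chr13:96132548-96132827 on the minus strand and Tet2 at chr3:133544361-133544640 on the minus strand.
Uggt2: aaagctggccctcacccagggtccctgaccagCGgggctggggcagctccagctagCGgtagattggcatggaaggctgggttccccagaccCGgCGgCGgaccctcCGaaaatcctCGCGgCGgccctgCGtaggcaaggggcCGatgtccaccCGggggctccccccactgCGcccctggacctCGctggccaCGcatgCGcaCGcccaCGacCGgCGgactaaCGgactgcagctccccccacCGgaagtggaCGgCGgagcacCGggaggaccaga
Grm6: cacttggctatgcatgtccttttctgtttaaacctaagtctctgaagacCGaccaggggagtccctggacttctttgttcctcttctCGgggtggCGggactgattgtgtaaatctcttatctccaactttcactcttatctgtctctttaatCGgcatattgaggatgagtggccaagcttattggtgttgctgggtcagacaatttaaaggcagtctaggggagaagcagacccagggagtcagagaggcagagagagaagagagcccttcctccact
Sv2c: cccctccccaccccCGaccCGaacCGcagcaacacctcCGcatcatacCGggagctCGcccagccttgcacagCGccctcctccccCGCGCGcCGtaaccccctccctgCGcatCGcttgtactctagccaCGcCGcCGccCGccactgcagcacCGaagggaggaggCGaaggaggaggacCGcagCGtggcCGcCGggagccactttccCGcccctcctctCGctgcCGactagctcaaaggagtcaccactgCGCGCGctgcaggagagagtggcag
Tet2: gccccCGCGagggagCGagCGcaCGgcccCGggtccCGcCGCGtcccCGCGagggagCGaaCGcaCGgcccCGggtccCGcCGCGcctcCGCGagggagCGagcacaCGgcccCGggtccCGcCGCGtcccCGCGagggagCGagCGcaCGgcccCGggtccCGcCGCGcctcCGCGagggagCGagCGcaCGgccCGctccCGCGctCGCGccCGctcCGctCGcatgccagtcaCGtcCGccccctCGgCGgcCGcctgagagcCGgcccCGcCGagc
The windows hold 25, 4, 29 and 56 CpG in this order, against a median of 6 over 32851 RefSeq promoter windows of the same length, of which 93.7% hold at least 1 CpG. At least as many CpG as in Uggt2 were found in 15.4% of all windows, as in Sv2c in 10.3%, and as in Tet2 in 0.07%. Grm6 is the CpG-poor one, since 66.2% of windows hold as many or more.

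Allelic reads in autosomal peaks numbered 0.912 to 1.99 M in the 4 wild-type libraries, and 1.12 and 0.271 M in matDKO/CAST. The B6 share of these reads was 50.2 to 52.6% in wild type, and 54.0 and 55.8% in matDKO/CAST. Mean promoter H3K4me3 was higher in epiblast than in ExE at 8 of 8 epiblast markers, such as Pou5f1, which encodes the pluripotency factor OCT4 (39.0 to 55.4 against 3.79 to 10.6 RPKM). At 8 of 11 ExE markers it was higher in ExE, and at 8 of 11 H3K27me3 was higher in epiblast. The ExE marker Elf5 had little H3K4me3 in either tissue (means of 0.197 and 0.367 RPKM). Visceral endoderm markers also had higher mean H3K4me3 in ExE, such as Cubn (5.01 RPKM in epiblast and 16.2 in ExE), except Foxa2 and Sox17. The calls were far from even between crosses. In CAST/B6 alone 1148 peaks (12.9%) passed, and in B6/CAST alone 139 (1.56%), and the B6/CAST replicates also differed more from each other (chi-square per degree of freedom 2.76 and 2.07 for the maternal and paternal reads, against 1.24 and 1.21). With the library as a block, which uses the fact that both alleles were read in the same pool, the count was 305 (3.42%) in place of 90, including all 90.

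Peaks that passed in both crosses numbered 119, and 90 of these (75.6%) followed the strain and 29 followed the parent. In the plot of one cross against the other the members sit in the corners where both ratios have the same sign. A joint fit over both crosses, with terms for cross, parent and strain, found a strain effect at 642 peaks (7.19%), 328 (3.68%) with the B6 and 314 (3.52%) with the CAST allele higher, and at 1434 (16.1%) with the library as a block. With 1 size per library for both alleles, which keeps the overall excess of B6 reads, the joint calls were split 419 to 251 toward B6. All 90 members were among the 642, and at all 90 the 4 wild-type libraries had the same direction. The parent term passed at 67 of 8924 peaks (0.751%) and at 0 of the members by edgeR, of which 4 had an unadjusted p below 0.05. Requiring the same strain to be higher in both crosses leaves little room for a parent effect or a split between libraries, so these counts describe the choice of the peaks. The imprinted gene Grb10, a growth-restraining adaptor, shows the contrast: the B6 share of its peak was 7.01 and 9.37% in B6/CAST and 97.5 and 97.1% in CAST/B6, a parent effect of -4.39 (log2 maternal over paternal, adjusted p 6.3e-16) beside a strain effect of 0.80 (adjusted p 0.0053).

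**Figure D1:**
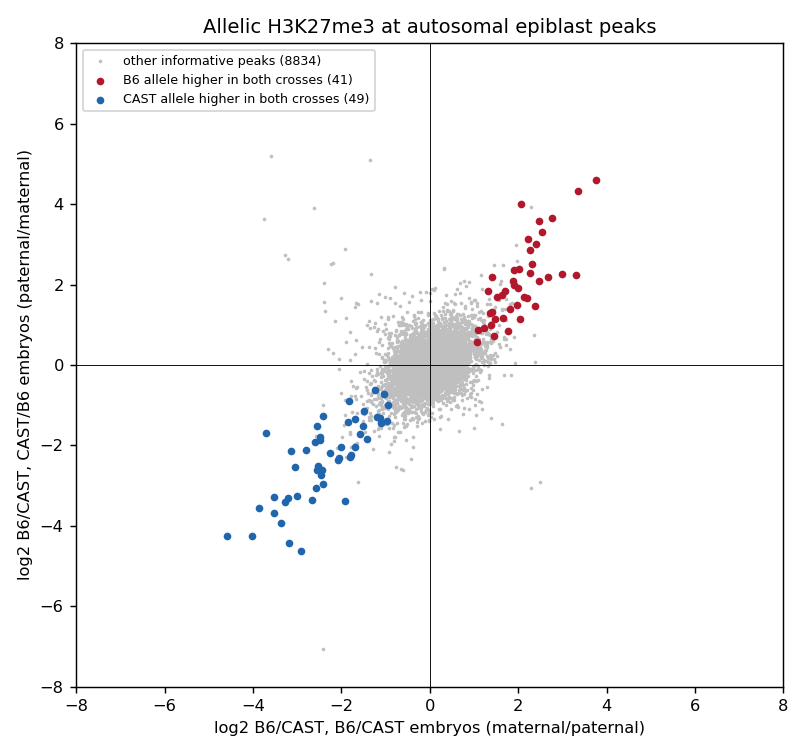
Log2 B6/CAST of H3K27me3 at 8924 informative autosomal peaks, in B6/CAST embryos (x axis) and CAST/B6 embryos (y axis), 2 libraries each. The 41 B6-high members lie at upper right and the 49 CAST-high members at lower left; peaks at upper left follow the parent.

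The ratios were wide. The log2 ratio of B6 over CAST in the joint fit ran from 0.81 to 4.17 at the B6-high members with a median of 1.94, and from -0.87 to -4.43 at the CAST-high members with a median of -2.24, against a median size of 0.21 over all informative peaks. At least 4-fold differences were found at 18 of the 41 and 33 of the 49, and 8-fold ones at 5 and 12. These sizes chose the peaks and are given as a description. Just inside the threshold was Rhof, with the larger of its adjusted p-values at 0.0497, and just outside was Gm12536 at 0.0502.

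At the B6-high end stood a peak 7516 bp from Plcl2 (chr17:50696000-50702000), which encodes a phospholipase C-like protein. Its B6 share was 93.9 and 93.8% in B6/CAST and 98.2 and 92.3% in CAST/B6 (replicates 1 and 2, an order used for all H3K27me3 shares). The CAST allele gave 1 or 2 reads in each library beside 24 to 55 B6 reads, a joint log2 of 4.17 ± 0.38 (SE, adjusted p 5.4e-08). Within Atf6, which encodes a transcription factor of the unfolded protein response (chr1:170840000-170846500), the shares were 90.3, 92.9, 93.3 and 98.2% (log2 3.85 ± 0.35, and 4.48 without CAST/B6 replicate 1). At both peaks the lowest B6 share of any wild-type library was 90.3%.

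The agouti gene, a, which encodes the paracrine antagonist of the melanocortin receptor that controls coat colour and for which B6 mice carry the recessive nonagouti allele, was also among the 10 widest B6-high ratios (chr2:155013500-155025000, over the start site). Its B6 shares were 89.5, 84.0, 97.0 and 78.6%, on 91 reads in all (log2 2.91 ± 0.44, adjusted p 8.3e-05), and the log2 was 2.17 without CAST/B6 replicate 1 and 3.65 without CAST/B6 replicate 2. Only 2 matDKO/CAST reads fell there, so that cross could not be read at this gene. The ExE peak that overlaps it was near even, with B6 shares of 46.1 to 52.3%. A further intergenic member of this group (chr7:87521500-87527000) lay 27988 bp from Tyr, which encodes tyrosinase, the key enzyme of melanin synthesis. The B6 share there was 82.1, 81.2, 93.8 and 95.3%.

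Other wide B6-high ratios were found near Ms4a8a (log2 3.01), a membrane-spanning protein gene, near Rfxap (2.69), which encodes a subunit of the RFX complex that drives MHC class II genes, and within Cfap57 (2.63), a cilia gene. The rest of the 10 widest were the predicted genes Gm23154 (3.22) and Gm46323 (2.70) and an intergenic peak on chromosome 14 (chr14:89895000-89900500, 2.77). All of them had B6 shares of at least 78.9% in each wild-type library.

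Among the B6-high members with the most reads, Tet2, a dioxygenase that oxidises 5-methylcytosine, had 1178 allelic reads over a 22.5 kb peak (chr3:133529500-133552000). Its B6 shares were 71.6, 67.6, 66.5 and 62.9%, a 1.99-fold difference (log2 0.99 ± 0.13, adjusted p 1.3e-05). Sv2c, a synaptic vesicle glycoprotein gene (chr13:96124000-96142000), had shares of 64.3, 80.1, 61.1 and 70.8% (log2 1.08 ± 0.16). At Dhrs9, a retinol dehydrogenase gene (chr2:69405000-69424000, 467 bp from the gene), the 4 libraries lay within 76.1 to 78.5% (1.70 ± 0.15), and at Gm4861 within 76.8 to 78.8% (1.78 ± 0.16). Gsdma, an epithelial gasdermin gene, had the smallest ratio of the B6-high members, at 57.2 to 70.5% (0.81 ± 0.14, adjusted p 0.00063), and without CAST/B6 replicate 1 its joint log2 of 0.73 did not pass (adjusted p 0.105). Of 99 immune start-site peaks, 2 were members, as were 32 of all 4773 start-site peaks (0.67%): Cd274, which encodes the checkpoint ligand PD-L1 (B6 shares 82.1, 87.1, 71.7 and 76.5%), and Cd300e, a myeloid receptor gene (82.3, 71.3, 73.2 and 63.1%). Cd274, Cd300e and the genes named in the comparisons with other marks and tissues were chosen after their values were seen, where the naming rule did not include them.

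At the CAST-high end the widest ratio was within Vps52 (chr17:33957000-33961000), which encodes a subunit of the GARP tethering complex. B6 reads were 1, 0, 2 and 0 in the 4 libraries beside 15, 13, 26 and 16 CAST reads, a pooled B6 share of 4.11% with an exact 95% interval of 0.856 to 11.5% that covers counting error only (log2 -4.43 ± 0.54). With so few B6 reads its log2 was -5.77 without B6/CAST replicate 1 and -5.78 without CAST/B6 replicate 1. A short peak 7518 bp from Rimbp3, a spermatid gene (chr16:17221500-17223000), had B6 shares of 10.0, 2.0, 4.7 and 4.5% (log2 -4.13 ± 0.36, and -4.89 without B6/CAST replicate 1). Within Riok3, an atypical kinase gene, the shares were 9.1, 9.1, 3.3 and 10.2% (-3.65 ± 0.29), within Camk1d, a calcium/calmodulin-dependent kinase gene, 12.5, 5.6, 7.5 and 6.2% (-3.60 ± 0.37), and within Zfp385b, a zinc finger gene, 9.7, 7.3, 7.3 and 11.1% (-3.41 ± 0.36). The predicted gene Gm26561 was at 9.1, 3.6, 9.3 and 4.3% (-3.71 ± 0.36). At each of these the highest B6 share of any wild-type library was 12.5%, and matDKO/CAST had only 3 reads at Riok3.

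A pair of runs of neighbouring members lay on chromosome 1, which held 10 of the 49 CAST-high members and 1 of the 41 B6-high ones, beside 6.06% of informative peaks. Of those 10, 7 belong to the runs and are not separate loci. The first run has 4 peaks over 96.5 kb, 1 within the Ugt1a cluster (chr1:88214000-88217500), whose enzymes attach glucuronic acid to bilirubin and drugs, and 3 within Trpm8 or over its start, the gene of the cold- and menthol-gated channel. B6 shares of the 4 peaks lay between 4.17 and 16.7% in all 4 wild-type libraries, with joint log2 values of -3.26 (Ugt1a1), -3.79, -3.34 and -2.82 (Trpm8, by rising coordinate). The second run, at chr1:140039000-140062500, has 3 intergenic peaks with log2 values of -2.46, -3.12 and -3.75, the last of which was -5.09 without CAST/B6 replicate 1.

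Among the CAST-high members with the most reads, Klhl35, a Kelch-like gene with its start site in the peak (chr7:99463500-99473000), had B6 shares of 38.2, 32.9, 32.8 and 34.8% (log2 -0.96 ± 0.15). A 22 kb peak 2371 bp from Hmces, which encodes a shield of abasic sites in DNA, had 38.9, 32.5, 24.9 and 31.6% (-1.16 ± 0.14). A peak near Bcas1, a myelin-related gene, had 36.3, 29.1, 27.4 and 26.7% (-1.27 ± 0.14), and one at Gm13271 33.8, 30.3, 27.4 and 31.8% (-1.23 ± 0.14). Gm49692, with 1137 reads, was at 20.3, 13.7, 13 and 15.7% (-2.51 ± 0.16, adjusted p 1.4e-10). In each of these the 4 libraries were on the CAST side, with B6 shares of at most 38.9%.

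**Figure D2:**
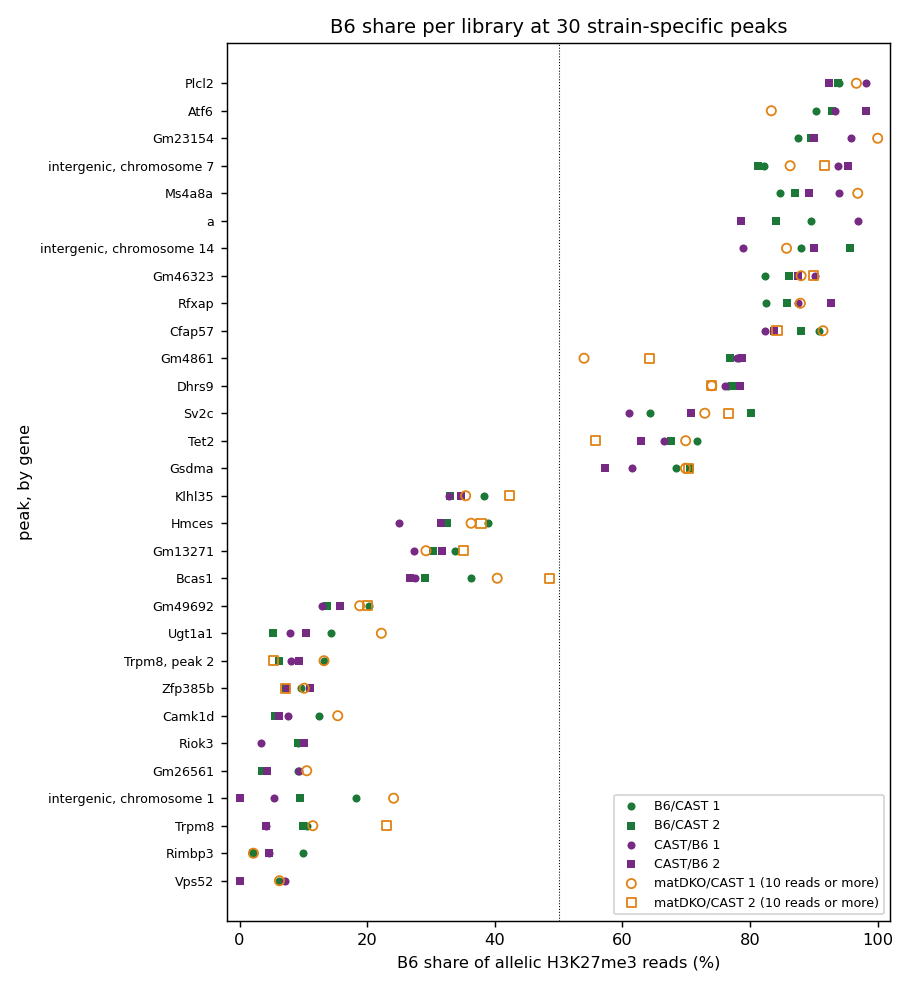
B6 share of allelic H3K27me3 reads (x axis, %) at the 30 peaks picked by size of the ratio or number of reads, by library; filled points are the 4 wild-type libraries, open points matDKO/CAST with at least 10 reads, and the dotted line is 50%. Filled points of both crosses fall on the same side at every peak, and at Gm4861 the matDKO/CAST points lie at 54.0 and 64.3%, beside 76.8 to 78.8% in wild type.

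Place and content of the members are set beside those of all informative peaks. Start sites lay in 26.5% of CAST-high members and 46.3% of B6-high ones, against 53.5% of all informative peaks, and 36.7 and 24.4% lay within a gene without its start, against 19.8%. Peak length had a median of 5.0 kb for CAST-high and 7.5 kb for B6-high members and 9.0 kb over all, and allelic reads a median of 222 and 204 against 286. Repeat-masked sequence made up a median of 24.5% of CAST-high and 29.6% of B6-high members against 21.8%. Total H3K27me3, which was not corrected for input, had a median RPKM of 1.65 and 1.25 against 1.24, where 10 of the 49 CAST-high members had an input above 1.5 times the median. The observed over expected CpG ratio had medians of 0.251 and 0.273 against 0.264. These medians are descriptions, and no test was made on them.

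None of the members lay at a start site of the homeobox, developmental transcription factor, signalling, imprinted or Polycomb subunit lists, and with members at 0.67% of all start-site peaks few would fall in lists of this size. In the joint fit, start-site peaks on the list of homeobox genes other than Hox genes passed at 0 of 99 by edgeR. Of these 99, 8 had an unadjusted p below 0.05, 0 passed by DESeq2 and 17 (17.2%) with the library as a block. The peak at Evx2 is counted both on this list and among the 4 Hox cluster peaks. Over all 4773 start-site peaks 5.93% passed by edgeR, 18.9% had an unadjusted p below 0.05, 2.18% passed by DESeq2 and 16.1% with the block, so that under the block the share at homeobox genes was near that of all start sites. Their depth was high, a median of 3456 allelic reads against 435 over the 4773 start-site peaks, and their median size of log2 was 0.08 against 0.18. The 4 Hox cluster peaks, with a median of 27276.5 reads, had a median size of log2 of 0.04. By edgeR 0 of them passed, with 0 at an unadjusted p below 0.05 and 0 by DESeq2, and 1 passed with the block. Other developmental transcription factors passed at 1 of 124, which was Irf2, an interferon regulatory factor (log2 -1.22 ± 0.23, B6 shares of 37.9, 33.3, 21.8 and 34.6%), with 17 (13.7%) under the block. Signalling genes passed at 2 of 112, both CAST-high: the ligand gene Wnt5a (-0.89 ± 0.15) and the Wnt antagonist gene Dkk3 (-0.57 ± 0.17), and at 10 (8.93%) under the block. Known imprinted genes passed at 1 of 33 (Grb10) and Polycomb subunits at 1 of 10, the PRC2-associated elongin binder Epop (-0.54 ± 0.16). Under the block these were 6 of 33 (18.2%) and 3 of 10.

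Higher shares of joint calls were found at immune genes, 14 of 99 (14.1%), and sensory receptor genes, 7 of 33 (21.2%), beside 5.93% of all start-site peaks, and with the library as a block 25.3 and 30.3% beside 16.1%. By DESeq2 7 of the 99 and 2 of the 33 passed, beside 2.18%. Of the immune calls 9 were B6-high, among them H2-Q6, an MHC class Ib gene (1.68 ± 0.39), and Cxcl5, a chemokine gene (1.13 ± 0.30), and 5 were CAST-high, among them H2-Ob (-0.76), an MHC class II gene, and Cd14 (-0.74), the co-receptor for bacterial lipopolysaccharide. Of the olfactory and vomeronasal receptor calls 4 were B6-high, from Vmn1r53 (0.72) to Olfr215 (1.41), and 3 were CAST-high, from Olfr94 (-0.80) to Olfr45 (-1.07). Detoxification genes passed at 5 of 43, including the member Cyp4f18, a cytochrome P450 gene (-1.52 ± 0.18, B6 shares of 30.9, 22.1, 27.3 and 23.7%). By DESeq2 1 of the 43 passed, and under the block 7 (16.3%). Ion channel and receptor genes passed at 7 of 165, with Grm6 as the member and Kcnn1, a calcium-activated potassium channel gene, as the strongest CAST-high call (-1.42), and at 23 (13.9%) under the block. KRAB zinc finger genes passed at 3 of 38, cadherins at 1 of 31, transporter and metabolic genes at 2 of 118 and germline genes at 0 of 28 by edgeR and by DESeq2, with 7 at an unadjusted p below 0.05. Under the block KRAB zinc finger genes passed at 9 (23.7%), cadherins at 3 (9.68%), transporter and metabolic genes at 20 (16.9%) and germline genes at 7 (25%), beside 16.1% of all start-site peaks.

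**Figure D3:**
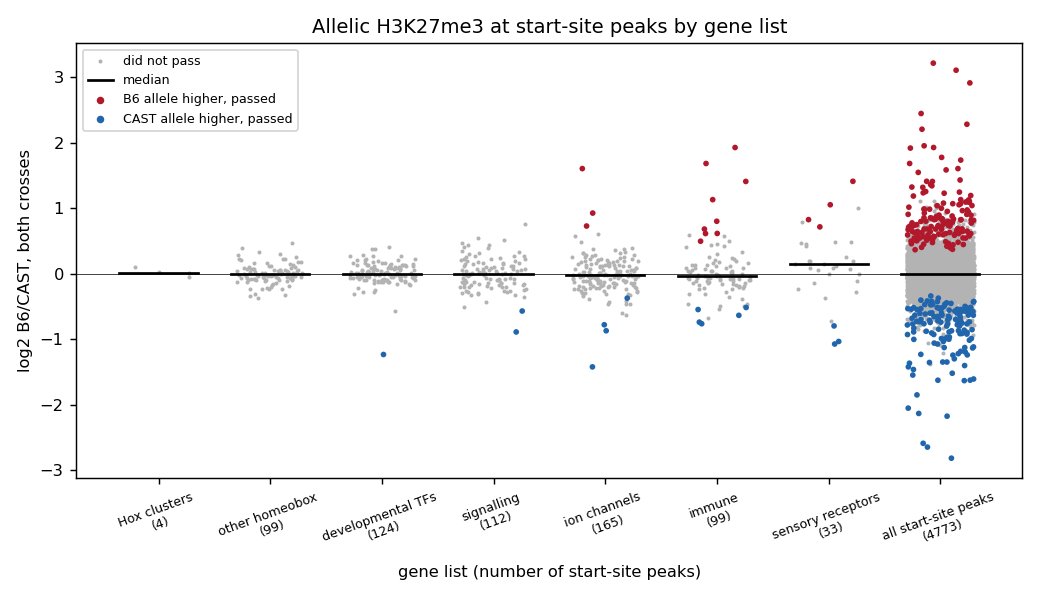
Log2 B6/CAST of H3K27me3 in the joint fit (y axis) at start-site peaks of 7 gene lists and at all 4773 start-site peaks; coloured points passed and black bars are medians. Homeobox and developmental factor peaks lie in a narrow band around 0, with Irf2 at -1.22 as the one developmental factor that passed without the library block. These peaks are also deeper, with a median of 3456 (other homeobox) and 2283 (developmental factors) allelic reads against 435 over all start-site peaks. With the block 17.2 and 13.7% passed, beside 16.1%.

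The matDKO/CAST libraries gave a reading of the same peaks in other embryos. In this single cross the B6-derived allele is always the maternal one, as in B6/CAST, so strain and parent cannot be told apart. There 176 of 8924 peaks (1.97%) differed between alleles, 101 (1.13%) with the maternal, B6-derived allele higher and 75 (0.84%) with the CAST allele higher. With the library as a block 299 passed, 170 and 129 by direction. The log2 ratio had the sign of the wild-type crosses at 87 of the 90 members, 49 of 49 CAST-high and 38 of 41 B6-high, against 63.3% of all informative peaks and 90.5% of the 642 joint calls. At least 20 allelic matDKO/CAST reads fell on 83 members, and of these 81 had the same sign, 45 of 45 CAST-high and 36 of 38 B6-high. The other members, such as a and Riok3, have too few reads for their sign to be read. The difference passed, with the same strain higher, at 36 CAST-high and 27 B6-high members, with median log2 values over the groups of -2.10 and 1.90. The count of 87 was the same in matDKO/CAST replicate 1 alone, without the shallow replicate 2. For Grm6 the matDKO/CAST ratio was 3.15 ± 0.60 (adjusted p 0.00045) and for Qsox1, a sulfhydryl oxidase gene with its start site in the peak, -2.19 ± 0.30 (adjusted p 5.5e-07) beside -1.85 ± 0.20 in wild type.

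The exceptions were all B6-high. Within Tmem267 (chr13:119609000-119613000) the B6 share was 76.9, 71.2, 82.7 and 81.6% in wild type and 18.9 and 25% in matDKO/CAST, on 37 and 4 allelic matDKO/CAST reads at replicates 1 and 2, a log2 of -2.24 ± 0.55 (adjusted p 0.012). The input at this peak also differed: it was 1.39 to 1.70 RPKM in the 3 B6/CAST inputs, 1.26 to 1.49 in the 3 CAST/B6 inputs and 0.467 to 0.693 in the 3 matDKO/CAST inputs, where all informative peaks had a median of 0.533. What part this played in the ratio was not tested. Fam227a (-0.04) and an intergenic peak at chr12:91943500-91948000 (-0.05) were near 0 in matDKO/CAST, with SEs of 0.47 and 0.83.

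Input depth stood apart at a number of members. Of the 8924 informative peaks 14 (0.157%) had a mean epiblast input above 1.5 times the median, and 11 of these 14 were members, 10 of them CAST-high and the other Tmem267. Input below 0.67 times the median was found at 109 peaks (1.22%), of which 12 were members, 8 B6-high and 4 CAST-high. The run at Ugt1a and Trpm8 had the highest values, 4.00 to 4.57 times the median. Smoothed input there was above 1 RPKM over 100 consecutive 1 kb windows, with a median of 2.44 RPKM inside and 0.512 RPKM in 360 windows around it, a ratio of 4.78. At the peak over the Trpm8 start the 9 inputs ran from 2.25 to 2.56 RPKM. Vps52, Camk1d, Rimbp3, chr6:3181000, Cyp4f18 and Gm49692 had 1.52 to 2.12 times the median input, and Plcl2, a and the peaks on chromosomes 7 and 14 named above had 0.413 to 0.62 times the median. The ratios were not divided by input, since allele-resolved input was not used here, and the part of input in these ratios was not tested. Among the 8801 peaks with input between these limits, 67 of the calls remained, 32 B6-high and 35 CAST-high.

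**Figure D4:**
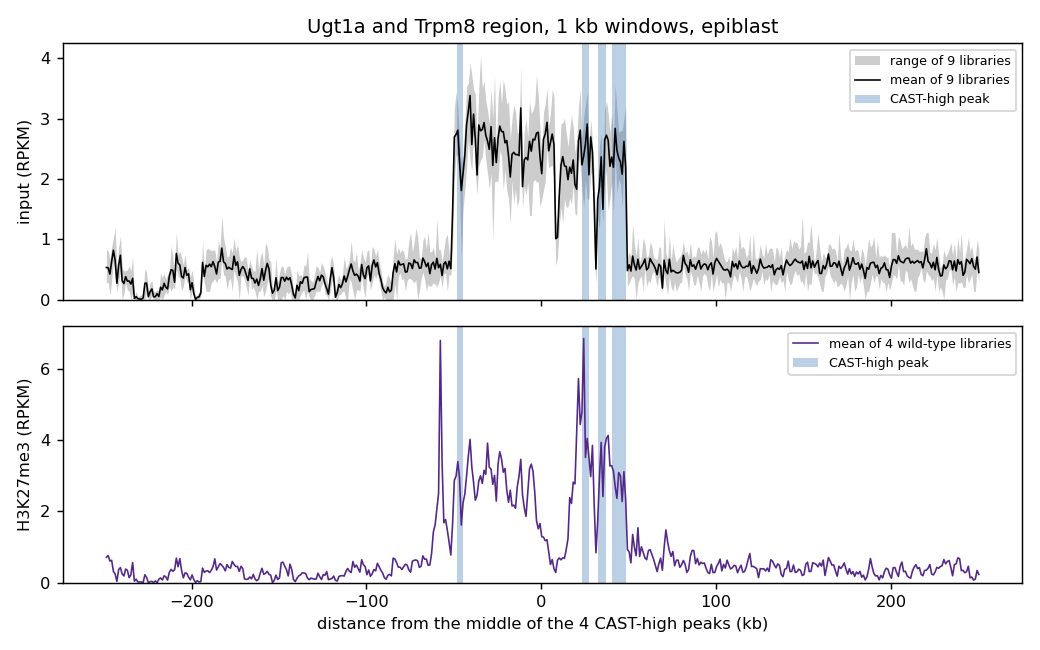
Input (top, RPKM, mean and range of 9 epiblast inputs) and total H3K27me3 (bottom, RPKM, mean of 4 wild-type libraries) in 1 kb windows against the distance from the middle of the 4 CAST-high peaks at Ugt1a and Trpm8 (blue, kb). Input rises to a median of 2.44 RPKM over about the span of the 4 peaks and is 0.512 RPKM outside.

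In ExE, 4325 of 18592 peaks (23.3%) had a strain effect in the joint fit. The wild-type ExE libraries were deeper, with 3.38 to 6.58 M allelic reads in peaks against 0.912 to 1.99 M in epiblast. The part of depth in the higher share was not tested. Sizes at the matched members were smaller than in epiblast at 32 of 32 B6-high and 32 of 38 CAST-high members. The epiblast sizes had chosen these peaks, so this is a description. An ExE peak overlapped 40 of the 49 CAST-high members, and for 38 it was informative. Of these 37 had the CAST allele higher, 34 passed with the CAST allele higher, and the median log2 was -1.15 beside -2.52 in epiblast. An ExE peak overlapped 33 B6-high members. Of the 32 with an informative one, 27 had the B6 allele higher, 19 passed with it higher, 1 passed with the CAST allele higher (Fam227a, -0.35), and the median log2 was 0.40 beside 1.76 in epiblast. Over all matched informative peaks 30.1% passed in ExE and 64.9% had the same sign. Overlap alone decided these matches, and ExE peaks can be longer than the epiblast peak they overlap, so that 2 members can share an ExE peak, as 2 of the Trpm8 peaks did. Riok3 was CAST-high in both tissues (ExE log2 -4.14 ± 0.35), and so was Gm13271 (-1.25 ± 0.08).

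The difference between tissues itself was tested at 2509 peaks whose epiblast and ExE intervals overlap by at least 50% of both, and 21 (0.837%) passed, 16 (0.638%) toward B6 in epiblast and 5 (0.199%) toward CAST. Members among the tested were 25, of which 5 passed. The epiblast values in these differences also chose the members, which favours a smaller ratio in ExE, so the differences at members are given with their SE as a description and without a p. At Dhrs9 the B6 share was 76.1 to 78.5% in epiblast and 48.7, 52.4, 45.1 and 44.8% in ExE, an epiblast minus ExE log2 of 1.85 ± 0.19. At Gm4861 the difference was 1.16 ± 0.22 and at Cd300e 0.93 ± 0.19, both with a smaller B6 excess in ExE. At Akr1c19, an aldo-keto reductase gene, the B6 share was 5.7 to 18.5% in epiblast and 26 to 36.8% in ExE (-1.78 ± 0.42), and an intergenic peak at chr17:23513500-23532500 had a difference of -0.74 ± 0.16. Without CAST/B6 replicate 1 the calls at Cd300e, Akr1c19 and chr17:23513500 were lost, with differences of 0.73, -1.53 and -0.68. With the library as a block 107 of the 2509 passed.

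H3K4me3, the mark of active and poised promoters, was compared at the same places, in 2 libraries per cross, whose shares are given for B6/CAST replicates 1 and 2 and CAST/B6 replicates 2 and 3. A strain effect was found at 1238 of 20328 epiblast H3K4me3 peaks (6.09%). Of 26 CAST-high members with an informative H3K4me3 peak, 9 passed with the CAST allele higher in both marks and 2 with the B6 allele higher in H3K4me3. Of 18 B6-high members, 1 passed in the same direction and 3 in the opposite one. Over all matched informative peaks 4.40% passed, and 49.0% had the same sign in both marks.

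Opposite marks were found at Uggt2, which encodes a glucosyltransferase that checks glycoprotein folding. Its H3K27me3 B6 share was 3.2, 18.5, 20 and 16.1% (log2 -2.65 ± 0.33), while its H3K4me3 B6 share was 64.5, 60.2, 62.2 and 55.8% (0.61 ± 0.14, adjusted p 0.0091). H3K36me3, the mark of transcribed gene bodies, was also higher on the B6 allele at an overlapping peak (0.85 ± 0.09, adjusted p 1.2e-15), in both crosses. Grm6, the metabotropic glutamate receptor gene of retinal bipolar cells, had the reverse arrangement. Its H3K27me3 B6 share was 81.0, 76.0, 77.1 and 65.8% (1.61 ± 0.24) and its H3K4me3 B6 share 41.2, 36, 24.8 and 27.7% (-1.16 ± 0.18, adjusted p 0.00014), with H3K36me3 at -0.57 ± 0.13 (adjusted p 0.00099).

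Atf6 (H3K4me3 log2 -1.92 ± 0.47) and Sv2c (-0.78 ± 0.22) were the other B6-high members with CAST-high H3K4me3. An intergenic CAST-high peak 26396 bp from Ndfip1 had H3K27me3 B6 shares of 22.5, 17.6, 18.4 and 12% and H3K4me3 B6 shares of 81.8, 79.9, 83.5 and 76.3% (2.06 ± 0.24, adjusted p 2.6e-06), a call that held in both crosses. At Tet2 and Cd274 the H3K4me3 ratios were -0.17 ± 0.13 and 0.07 ± 0.17 and did not pass. The Kbtbd6 peak, over the start of a Kelch-like substrate adaptor gene of CUL3, was strongly CAST-high in H3K27me3 (B6 shares 13, 17.5, 17.0 and 10.5%), and its H3K4me3 log2 of 0.74 ± 0.39 did not pass (adjusted p 0.38).

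Both marks were higher on the same allele at Camk1d (H3K4me3 log2 -4.95 ± 1.04), 4930558K02Rik (-4.91 ± 0.90), chr1:140039000 (-4.81 ± 0.51), chr6:3181000 (-3.26), Gm49692 (-2.86 ± 0.29), Rhof (-1.79), Rimbp3 (-1.78 ± 0.44), Bcas1 (-1.24 ± 0.28) and chr6:47642500 (-0.86 ± 0.19), all CAST-high, and at AC154200.1 (4.34 ± 0.78), B6-high. Of these 10, Camk1d, chr6:3181000, Gm49692 and Rimbp3 belong to the peaks with input above 1.5 times the median. Among the rest, chr6:47642500, Rhof and chr1:140039000 had 1.36, 1.28 and 1.18 times the median. Bcas1, 4930558K02Rik and AC154200.1 had 1.08, 0.921 and 0.812 times the median. Over the 642 joint calls, 469 had an H3K4me3 peak and 393 an informative one, of which 38 passed in the same and 27 in the opposite direction. For H3K36me3, 64 had an informative peak, of which 3 passed in the same and 10 in the opposite direction, and 25% had the same sign against 42.3% of the 593 matched informative peaks, of which 8.60% passed, beside 4.45% of all 11076 H3K36me3 peaks. Of 11 members with an informative H3K36me3 peak, 2 passed in the opposite direction (Uggt2 and Grm6) and 2 in the same one, chr1:140039000 (-0.95 ± 0.21) and chr1:140059500 (-1.38 ± 0.15).

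**Figure D5:**
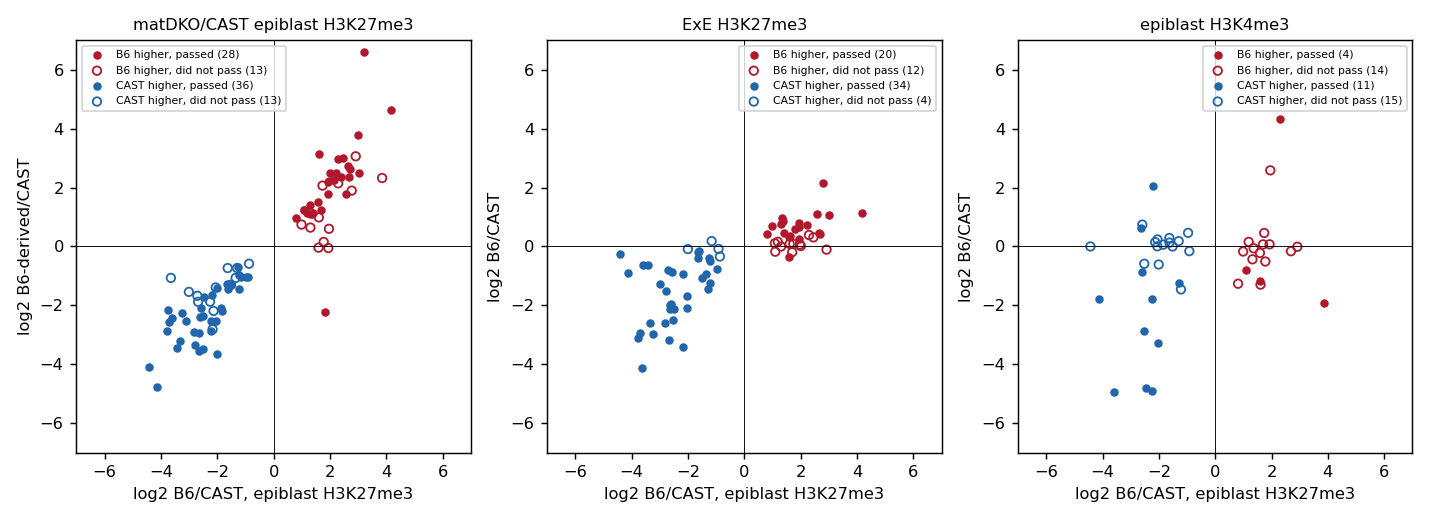
Log2 B6/CAST of the members in matDKO/CAST epiblast H3K27me3, in ExE H3K27me3 and in epiblast H3K4me3 (y axes) against their joint log2 in wild-type epiblast H3K27me3 (x axes), for members with a value; filled points passed. Tmem267 at -2.24 is the filled B6-high point below 0 in the left panel, 27 of 32 B6-high members lie above 0 in ExE with a median of 0.40, and H3K4me3 falls on both sides of 0.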

How the data were processed

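The members and gene lists were chosen with earlier results of these data known. Groups and replicates followed the labels. The authors aligned the reads to GRCm38 with strain variants masked (per the labels, Trim Galore 0.4.4 and Bowtie2 2.3.2), assigned those over a variant to a parent, called peaks per cross and tissue and deposited raw counts per peak and allele. For matDKO/CAST, variants that 129 shares with CAST had been left out and reads assigned to 129 added to the maternal side. The authors also deposited RPKM in 1 kb windows for all reads regardless of allele, used here for input and total signal as the mean over a peak's windows. Their low values are whole multiples of 1 read in 100% of values (within 0.02 reads). No column was left without a sample.

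Autosomal peaks with at least 20 reads in 1 wild-type allele column were tested with the quasi-likelihood test of edgeR 4.0.16, two-sided, with TMM scaling and a threshold of 0.05 on p-values adjusted after Benjamini and Hochberg over all informative peaks, in each cross on its own and in a joint fit over both with terms for cross, parent and strain. SEs were derived from the F statistic. No input was subtracted. Maternal and paternal reads of a library come from the same pool, so the library is a true block. Deviations of both columns from their means correlated at 0.315 in B6/CAST and 0.050 in CAST/B6. Blocked counts were made for the calls in both crosses, the joint strain effect in epiblast H3K27me3, matDKO/CAST and the tissue difference. They are given where they moved by over 1.5 times. No blocked counts were made for a cross alone, for the parent term or for the strain effects in ExE, H3K4me3 and H3K36me3. Nothing in the labels says that replicate pools came from separate litters, so p-values measure the spread between these pools. DESeq2 1.42.0 was an alternative. On simulated counts for 8924 peaks, the rule for both crosses recovered 25% of 2-fold and 89% of 4-fold changes, with 0 false calls. The joint fit recovered 76 and 100%, with 7 false calls. The simulation drew each allele column on its own, without a deviation shared by both columns of a library, so these rates need not hold for the data.

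Exact 95% binomial intervals (Clopper-Pearson) cover counting error only, since reads carry no molecular identifiers. Peaks were named by a start site within them (GENCODE vM21), else the gene they lie in, else the nearest gene within 10000 bp, else by coordinates, as given in the deposited start and end columns. The text names the 10 widest ratios and the 5 with the most reads in each direction, and start-site members of the developmental, signalling, imprinted and Polycomb lists, of which there were none. Members with a peak of another mark or of ExE were matched by the widest overlap. Some items are not reported here. Other tools were R 4.3.3, Python 3.11.15 and matplotlib 3.10.9.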

Additional observations from a re-analysis of the deposited data

Results flagged for a closer look

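At 5 members the difference in strain effect between epiblast and ExE passed the test over 2509 peaks. The epiblast values that enter it also chose the members, so it is no independent evidence of a tissue difference. The epiblast minus ExE log2 was 1.85 at Dhrs9, 1.16 at Gm4861, 0.93 at Cd300e, -1.78 at Akr1c19 and -0.74 at chr17:23513500. Tmem267 was B6-high in all 4 wild-type libraries and CAST-high in both matDKO/CAST libraries, with a matDKO/CAST log2 of -2.24, and this difference between the crosses was not tested. Fam227a was B6-high in all 4 epiblast libraries, while the ExE peak that overlaps it was CAST-high in all 4 ExE libraries, with a log2 of -0.35, a difference that was not tested either, since the intervals overlap too little.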

How the results depend on the processing

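The 90 strain-specific calls became 96 with RLE factors, 92 with library totals, 77 with 1 size per library, 126 without a filter, 62 with 20 reads in each cross and 132 with 1 fit over the 4 groups of cross and allele. DESeq2 gave 30 and an adjusted p below 0.01 gave 48, all of them among the 90. With the replicate block they were 305. Leaving out 1 library leaves its cross with a single one, so these counts come from the fit over the 4 groups, with the spread taken from the other cross and the lone library assumed to vary like it. They are to be set beside 132 and say little of the replicate spread within that cross. They ranged from 33 (without CAST/B6 replicate 1) to 159 (without B6/CAST replicate 2), of which 33 and 76 were among the 90. The 642 joint calls became 256 with DESeq2, 328 at 0.01 and 1434 with the replicate block, and ranged from 176 (without CAST/B6 replicate 1) to 1025 (without B6/CAST replicate 2), with 220 without CAST/B6 replicate 2. The strain-specific calls without that library were 45. The 21 tissue differences became 5 at an overlap of 80%, where 925 peaks were tested, and 107 with the replicate block, and ranged from 10 (without either CAST/B6 replicate) to 76 (without B6/CAST replicate 2), with 50 without B6/CAST replicate 1. The 176 matDKO/CAST calls became 299 with the replicate block, which moved the 63 members called there to 66. For the 30 named peaks, 357 joint values under other settings had the same direction and call, and 1 lost the call (Gsdma), while leaving out 1 library moved the ratios of Atf6, a, Vps52, Rimbp3 and chr1:140059500 by over 1.5 times. Vps52 and Ugt1a1 have no value at 20 reads in each cross. Without CAST/B6 replicate 1, Cd300e, Akr1c19 and chr17:23513500 lost the call of a tissue difference, with log2 differences of 0.73, -1.53 and -0.68. Without CAST/B6 replicate 2 chr17:23513500 lost it, with a difference of -0.78. Restricting the peaks to ordinary input was chosen after seeing the data and left 67 and 602 calls. The cause of these changes was not tested. Depth limits ratios such as that of Vps52, which rests on 73 reads.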

Other observations

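Epiblast peaks where ExE differed while the epiblast itself did not pass include Camkk2, a kinase gene of energy sensing, with B6 shares of 37.8 to 53.3% in epiblast and 8.33 to 14.3% in ExE (epiblast minus ExE log2 2.60 ± 0.46, adjusted p 0.0016), and Rap1gap2, a regulator of RAP1, with 46.7 to 57.7% in epiblast and 33.8 to 43.2% in ExE (0.77 ± 0.17). Itgb3, which encodes the integrin beta-3 subunit, passed in the joint fit in epiblast with B6 shares of 63.7 to 68.3% and was at 49.8 to 55.3% in ExE (0.84 ± 0.13, adjusted p 0.00015), and Tgm4, a transglutaminase gene, was at 58.4 to 83.1% and 45.8 to 57.2% (1.38 ± 0.19). These were chosen after their values were seen.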
